A study of Mus musculus with 24 samples.

Results

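The 6 genes described here, Calm3, Nrgn, Camk2a, Camk2b, Ppp3ca and Ptk2b, belong to the calcium and calmodulin signalling branch of the RNA that co-purified with STAU2 in mouse cortex. They were chosen by gene symbol, and all peaks annotated to these symbols were taken. This gave 6 of the 7970 genes and 10 of the 14297 gene-annotated peaks of the table. Ppp3ca had 5 peaks and each of the other genes had 1. STAU2 is a double-stranded RNA-binding protein that carries RNAs within neurons and dividing progenitors. RNA was immunoprecipitated with an antibody against it from brain cortex of C57BL/6 embryos, with 3 libraries per stage. The 4 stages run in steps of 2 days, starting at E11.5 and ending at E17.5. The labels name no genotype, transgene or treatment for any group. The labels also describe 3 input libraries of total RNA per stage, and the count columns carry a stage and replicate number that fits both kinds of library. Since the table is one of peaks, the columns were read as the immunoprecipitations, and all values below rest on this. Inputs were not analysed here, so a change in how much of an RNA the cortex holds and a change in its binding to STAU2 cannot be told apart. Whether the replicates come from different embryos, litters or pools is not stated in the labels, so the p-values reflect just the scatter of these libraries, which may be technical.

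Calmodulin is a small protein that binds calcium and then switches other proteins on. In neurons it activates the CaMKII kinases, which phosphorylate synaptic proteins, and the phosphatase calcineurin, which removes phosphate. Neurogranin holds calmodulin near the postsynaptic membrane while calcium is low. In mature forebrain neurons the mRNAs of Camk2a, Nrgn and Calm3 are found in dendrites, and a Calm3 isoform with a long 3′ UTR is a known Staufen2 target in rat neurons.

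Because STAU2 binds paired RNA, the 30-base stretch with the lowest predicted folding energy around each peak's midpoint is printed for 4 of the genes. Capitals mark bases that pair within the predicted hairpin, and the sequences run 5′ to 3′ along the mRNA, from GENCODE vM21 transcripts on mm10.
Calm3: aGGccCGGGCAgctggccaTGCCCGttCTc
Nrgn: CTCGGTGCGCttcgctgcGCGTACTGcAGa
Ptk2b: CTGGATggacaGCCaagGGCcataGTCCAG
Ppp3ca: GACaaTGgCTAtaaactgaatTAGgCAGTC
The Calm3 stretch lay at chr7:16916918-16916947 on the minus strand and started at base 1 of the 3′ UTR. The Nrgn stretch lay at chr9:37544985-37545014 (minus), that of Ptk2b at chr14:66153528-66153557 (minus) and that of Ppp3ca at chr3:136935748-136935777 (plus), all in 3′ UTRs. Their predicted energies were -11.5, -12.7, -9.9 and -3.8 kcal/mol in the order printed, where a more negative value means a more stable fold. The median over 4982 peaks in 3′ UTRs was -9.4 kcal/mol. The Nrgn stretch was therefore at the 18.0th percentile of these peaks (stable side) and the Ppp3ca stretch at the 98.7th. The Ppp3ca peak also stood apart in base composition, with 22.5% G and C in its 200-base window against a median of 45%, at the 0.12th percentile. The Camk2a peak, whose stretch is not printed, was weakly folded too, with a lowest energy of -5.2 kcal/mol (percentile 94.2). A predicted hairpin describes the sequence and does not show where STAU2 binds.

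The single Camk2b peak was the only one of these genes outside a 3′ UTR apart from the exon peaks of Ppp3ca. It spanned chr11:5982299-5982703 on the minus strand, 405 bases, of which 72 were exon 15 of 21 in transcript Camk2b-209 and the rest intron. This exon holds codons 354 to 377, beyond the kinase domain in the linker that differs between splice forms, and 8 of 10 coding transcripts in GENCODE include it. Its sequence is shown because all Camk2b counts came from a peak that spans it, with the midpoint of the peak at the exon's edge.
Camk2b exon: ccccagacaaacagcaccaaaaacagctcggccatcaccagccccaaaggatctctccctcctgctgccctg
Reads from spliced and unspliced Camk2b RNA in this peak were not separated.

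Values are given as CPM, edgeR's counts relative to the TMM-scaled library size, summed over the peaks of a gene. Per kilobase of called peak, Calm3 had the highest level of the 6 genes at every stage, with stage means of 2216, 2243, 2305 and 2620 CPM per kb in order of age. At E17.5 the order below it was Camk2b (705 ± 343 CPM per kb, SD, n = 3), Nrgn (387 ± 66.4), Ppp3ca (80.6 ± 18.5), Camk2a (60.8 ± 25.02) and Ptk2b (31.1 ± 14.7). The libraries of Ppp3ca overlapped those of Camk2a, and those of Camk2a overlapped those of Ptk2b, while Camk2b and Nrgn each stood clear of the gene after them. At E11.5 the order was Ppp3ca (71.0 ± 12.6 CPM per kb), Camk2a (33.6 ± 1.62), Nrgn (22.9 ± 15.96), Camk2b (0.318 ± 0.550) and Ptk2b (0). The libraries of Camk2a and Nrgn overlapped there, as did those of Camk2b and Ptk2b. Peak widths include intron to unlike extents, with 72 of 405 bases exonic at Camk2b and 277 of 362 at Calm3. These orders hold per base of called peak, and levels per base of exon were not computed.

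**Figure D1:**
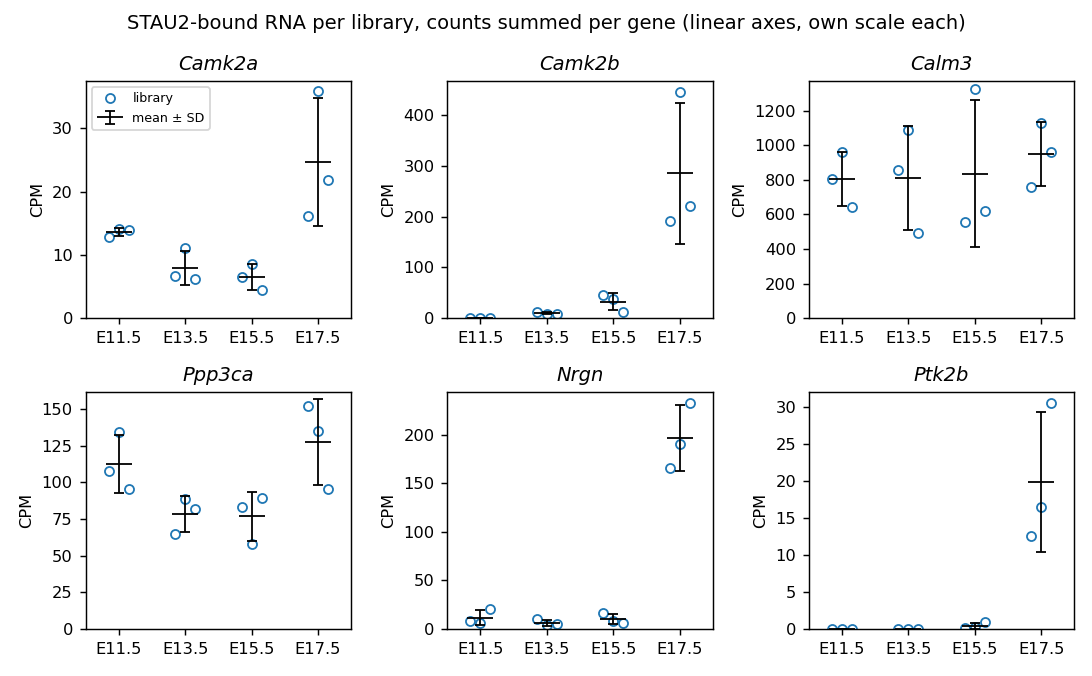
CPM of the 6 genes in each of the 12 libraries (circles), with stage means and SD (bars, n = 3), each panel on its own linear axis from 0. Camk2b, Nrgn and Ptk2b are high at E17.5, while the Calm3 libraries overlap at all stages.

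Calm3 encodes calmodulin. Its level was 804, 958 and 645 CPM in replicates 1, 2 and 3 at E11.5, and 858, 1087 and 490 CPM at E13.5. At E15.5 the 3 libraries had 558, 1325 and 621 CPM, and E17.5 gave 758, 1128 and 959 CPM. The stages overlapped throughout, and replicate 2 was the highest library at each of the 4 stages. A gene was called changed where its p, adjusted over all genes tested, was under 0.05. Calm3 was not called over the 4 stages (edgeR quasi-likelihood F test, adjusted p = 0.917). The log2 change was 0.24 ± 0.36 (± SE) for E17.5 against E11.5, and for E17.5 against E15.5 it was 0.18 ± 0.36. Each SE of a log2 change was derived as the size of the change divided by the square root of its F. At low counts, where the change depends on the prior count, this SE is approximate. Its peak, chr7:16916700-16917061 on the minus strand, overlaps the last coding bases and the start of the 3′ UTR. Of its 362 bases 277 are annotated as exon, and the predicted hairpin printed above lies directly after the stop codon. When libraries were scaled to their gene-peak total in place of TMM, which moves the median gene by 1.23, Calm3 was called at E17.5 against E11.5 with a log2 change of 1.45.

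Nrgn encodes neurogranin. Replicates 1, 2 and 3 had 8.36, 5.69 and 20.8 CPM at E11.5, and 9.71, 3.58 and 5.19 CPM at E13.5. At E15.5 they had 16.1, 8.35 and 5.97 CPM, and E17.5 gave 166, 190 and 233 CPM. The first 3 stages overlapped, and every E17.5 library was far above them. Nrgn rose at E17.5 against E15.5 by 4.27 ± 0.49 on the log2 scale (adjusted p = 4.59e-05), the 4th largest rise of the 7876 genes tested. Against E11.5 the rise was 4.09 ± 0.50 (adjusted p = 5.15e-06). The earlier steps passed no threshold, with log2 changes of -0.90 ± 0.48 to E13.5 and 0.71 ± 0.46 to E15.5. The E11.5 mean of 11.6 CPM was carried by replicate 3. The peak, chr9:37544706-37545212 on the minus strand, lay wholly in the 3′ UTR.

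Nrgn also had counts on the strand opposite the gene, with the largest share in replicate 2. In the 3 E17.5 libraries they were 7.21%, 22.1% and 8.74% of the counts of both strands at this peak, and at Calm3 4.80%, 5.97% and 4.60%. Over 3596 gene peaks with both strands in the table, the median share was 6.53% to 8.76% in the 4 replicate 2 libraries and 1.82% to 3.92% in the other 8. Without replicate 2 of every stage, an alternative chosen after seeing the data, the same 4 of the 6 genes passed at E17.5 against E15.5.

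Camk2a and Camk2b encode the alpha and beta subunits of CaMKII, which assemble into mixed holoenzymes. Camk2a had 12.8, 14.03 and 13.9 CPM at E11.5, and 6.66, 11.01 and 6.23 CPM at E13.5. At E15.5 it had 6.45, 8.48 and 4.39 CPM, and E17.5 gave 16.2, 35.9 and 21.8 CPM. The E17.5 libraries were above those of every earlier stage, and the lowest values were at the middle stages. Camk2a rose at E17.5 against E15.5 by 1.93 ± 0.36 (adjusted p = 0.00173). Against E11.5 the change was 0.86 ± 0.36 (adjusted p = 0.0521), which passed the threshold in 10 of 21 alternatives, with adjusted p between 8.94e-05 and 0.303. Its log2 change at E13.5 against E11.5 was -0.77 ± 0.37 (adjusted p = 0.142), and this sign turns with scaling by total counts. The peak is in the 3′ UTR on chromosome 18, at 60985990 to 60986394 on the plus strand.

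Camk2b was close to absent at E11.5, with 0, 0 and 1 counts in the 3 libraries. It reached 12.2, 9.01 and 8.43 CPM at E13.5, and 46.0, 38.7 and 13.1 CPM at E15.5. The E17.5 libraries had 191, 445 and 221 CPM. Each stage lay wholly above the one before, and replicate 2 at E17.5 held 2505 of the 5060 counts of that stage. The ratio of scaled counts at E17.5 over E11.5 was 2410, with a 95% exact interval of 432 to 95197 that covers counting error only. At E13.5 over E11.5 it was 84.6 (15.02 to 3356), and this was the only call among the 6 genes at that step (adjusted p = 0.000222). At E15.5 against E13.5 the log2 change of 1.72 ± 0.43 was not called (adjusted p = 0.109), though DESeq2 called it (adjusted p = 0.00902), as did edgeR without E15.5 replicate 3 (adjusted p = 0.0223), the lowest library of its stage. At E17.5 against E15.5 it rose by 3.13 ± 0.44 (adjusted p = 0.000234).

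Within a library, the ratio of 2 genes does not depend on how the library is scaled. The log2 ratio of Camk2a to Camk2b counts, with 2 counts added to each, averaged 4.15 ± 0.43, -0.33 ± 0.57, -2.16 ± 0.63 and -3.49 ± 0.15 over the 4 stages in order of age (SD, n = 3 each). No library of one stage overlapped those of another. At E11.5 the ratio is limited by the added counts, since Camk2b had 1 count. The ratio sets a Camk2a peak in the 3′ UTR, exonic in 405 of 405 bases, against a Camk2b peak with 72 exonic bases of 405. Spliced and unspliced RNA were not separated. The stages differed in an exact permutation test (p = 6.49e-05, the smallest that 15400 arrangements can give, adjusted p = 0.000325 over 5 pairs). The other CaMKII subunits, gamma and delta, served as partners. The Camk2b to Camk2g ratio averaged -5.46 ± 0.50, -2.23 ± 0.83, -0.71 ± 1.24 and 1.37 ± 0.92 over the stages in order (adjusted p = 0.000487, exact). Its E11.5 value is limited by the added counts as well. Camk2a to Camk2d averaged 1.19 ± 0.18, 1.25 ± 0.30, 1.10 ± 0.97 and 2.61 ± 1.10 and was not called (p = 0.107, exact), but it was called without E15.5 replicate 2 (adjusted p = 0.0342) or without E17.5 replicate 1.

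**Figure D2:**
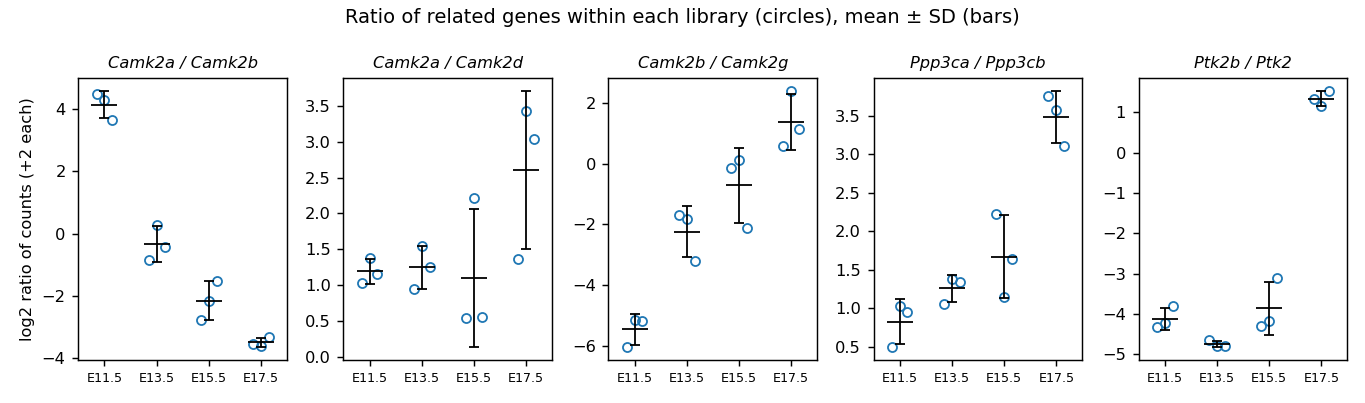
Log2 ratio of the counts of related genes in each library (circles) with stage means and SD (bars, n = 3), 2 counts added to each gene, each panel on its own axis. Camk2a to Camk2b is lower at each later stage and averages -3.49 at E17.5, while Ppp3ca to Ppp3cb and Ptk2b to Ptk2 are highest at E17.5.

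Ppp3ca encodes the alpha catalytic subunit of calcineurin. It had 107, 134 and 95.3 CPM at E11.5, and 64.9, 88.4 and 82.1 CPM at E13.5. At E15.5 it had 83.0, 57.9 and 89.2 CPM, and E17.5 gave 152, 135 and 95.3 CPM. Every E17.5 library was above every E15.5 library, while E17.5 and E11.5 overlapped. The 4-stage test gave an adjusted p of 0.0488, just inside the threshold, and 6 of 20 alternatives kept the call, with p of up to 0.235 in the others. At E13.5 against E11.5 the change was -0.52 ± 0.26 (adjusted p = 0.166), and with scaling by the gene total or by the total over all peaks it was called in the other direction, at 0.67 and 0.72. The change at E17.5 against E15.5 was 0.73 ± 0.26 (adjusted p = 0.0577). It passed under DESeq2 (adjusted p = 0.0260) and without E17.5 replicate 3 (adjusted p = 0.0402), the lowest library of that stage.

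The 5 Ppp3ca peaks lay on the plus strand of chromosome 3. The 3′ UTR peak (136935614 to 136935930) held 59.1% ± 2.57, 54.7% ± 3.63, 51.7% ± 7.60 and 57.6% ± 3.61 of the gene's counts over the 4 stages in order of age (SD, n = 3 each). Per kilobase its mean level was 208, 136, 127 and 237 CPM at the 4 stages in order, the highest of the 5. The 4 exon peaks start at 136797819, 136890295, 136903151 and 136921692 and overlap coding exons 2, 8, 9 and 11 of 13. They hold 108, 95, 78 and 85 exonic bases of 311, 405, 145 and 405, so all but the third are mostly intron. Reads from spliced and unspliced RNA were not separated here either. None of the 5 peaks passed alone at any step, and at E17.5 against E15.5 their log2 changes ranged between 0.42 ± 0.34 at the third exon peak and 0.89 ± 0.36 at the 3′ UTR peak. The peaks were not found to move apart between E17.5 and E11.5 (edgeR diffSpliceDGE, adjusted p = 0.998), where 4.33% of 3415 genes with several peaks were called.

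**Figure D3:**
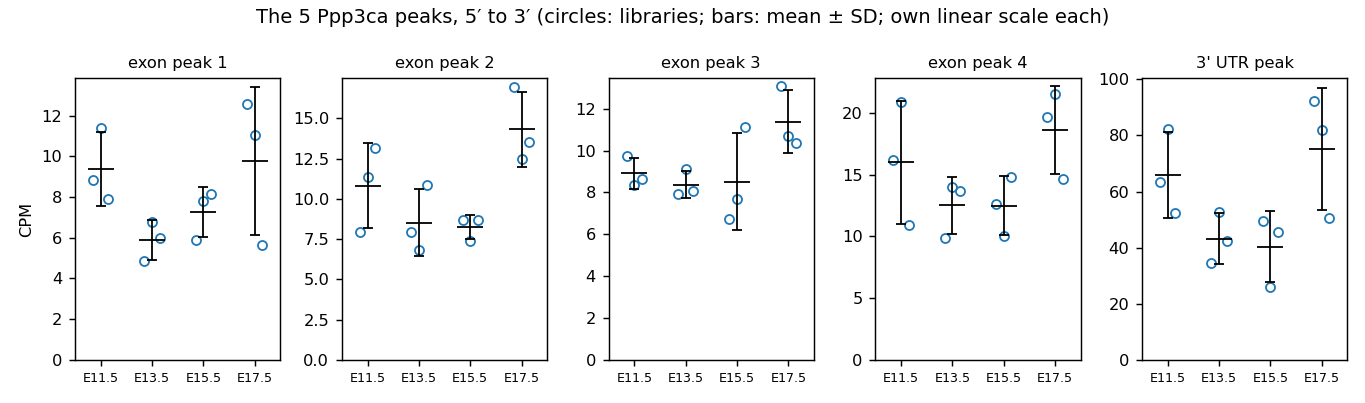
CPM at the 5 Ppp3ca peaks, ordered 5′ to 3′, in each library (circles) with stage means and SD (bars, n = 3), each panel on its own linear axis from 0. The 3′ UTR peak is the largest, with a mean of 75.03 CPM at E17.5, and all 5 peaks have their highest mean at E17.5.

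Ppp3cb encodes the beta catalytic subunit of calcineurin. It averaged 63.5 ± 13.6, 32.4 ± 1.41, 24.0 ± 5.67 and 10.9 ± 0.135 CPM over the 4 stages in order of age (SD, n = 3 each). It fell by 2.54 ± 0.27 on the log2 scale at E17.5 against E11.5 (adjusted p = 1.57e-06). The Ppp3ca to Ppp3cb log2 ratio averaged 0.83 ± 0.29, 1.26 ± 0.17, 1.67 ± 0.54 and 3.48 ± 0.34 over the stages (adjusted p = 0.00195, exact). The E17.5 libraries, between 3.11 and 3.76, did not overlap those of any earlier stage.

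Ptk2b encodes PYK2, a tyrosine kinase that calcium activates and a relative of the focal adhesion kinase Ptk2. It had 0 counts in all 6 libraries at E11.5 and E13.5. At E15.5 replicates 1, 2 and 3 had 1, 2 and 8 counts, and at E17.5 they had 76, 93 and 193, or 12.6, 16.5 and 30.5 CPM. Every E17.5 library was above every earlier one. The E17.5 level was at least 57.5-fold higher than the E11.5 level and at least 147-fold higher than the E13.5 level, computed with 3 counts in total assigned to the earlier stage. At E17.5 against E15.5 it rose by 5.42 ± 0.64 on the log2 scale (adjusted p = 0.000221), the largest fitted rise of all genes tested. Ptk2b passed the filter on low counts only through its E17.5 libraries, so its entry into the test depended on the stage where it is high. At E15.5 it was not called against E13.5 (adjusted p = 0.293), with a bound of at least 3.28-fold higher.

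The Ptk2b peak, chr14:66153211-66153849 on the minus strand, is in the 3′ UTR, and 593 of its 639 bases are annotated as exon. Its partner Ptk2 averaged 11.6 ± 1.63, 7.04 ± 0.480, 8.61 ± 1.44 and 7.50 ± 2.82 CPM over the 4 stages and was not called (adjusted p = 0.255). The Ptk2b to Ptk2 log2 ratio averaged -4.11 ± 0.27, -4.74 ± 0.08, -3.86 ± 0.66 and 1.33 ± 0.19 (adjusted p = 0.00203, exact), where the first 2 values are set by the added counts.

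Over the 4 stages 5 of the 6 genes were called, all but Calm3, against 53.7% of the 7876 genes tested. At E13.5 against E11.5 it was 1 of 6 (24.6% of all genes), and at E15.5 against E13.5 it was 0 of 6 (0.673%), where Camk2b and Ptk2b had unadjusted p of 0.00110 and 0.00859. At E17.5 against E15.5 it was 4 of 6, all higher, where 20.4% of genes were called and 9.37% were called higher. At E17.5 against E11.5 it was 3 of 6, all higher, where 57.8% of genes were called and 28.8% were called higher. The count over the 4 stages and the last 2 counts include Ptk2b, which entered the test only through its E17.5 libraries. The median log2 change of the 6 genes was 2.53 at E17.5 against E15.5, where that of all genes was 0.0026, and 2.47 at E17.5 against E11.5, where it was 0.03. The last median lies between Camk2a and Nrgn, so it does not depend on how high Ptk2b was fitted. Both medians do depend on Ptk2b being counted among the genes. Without Ptk2b the middle gene is Camk2a in both comparisons, at 1.93 and 0.86. By peak the counts were 4, 1, 0, 4 and 3 of 10 for the same comparisons, where 46.6%, 17.2%, 0.319%, 13.1% and 51.9% of 14106 peaks were called. The Ptk2b peak is among those called over the 4 stages and in the last 2 comparisons. The stage pairs share libraries and are not independent.

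**Figure D4:**
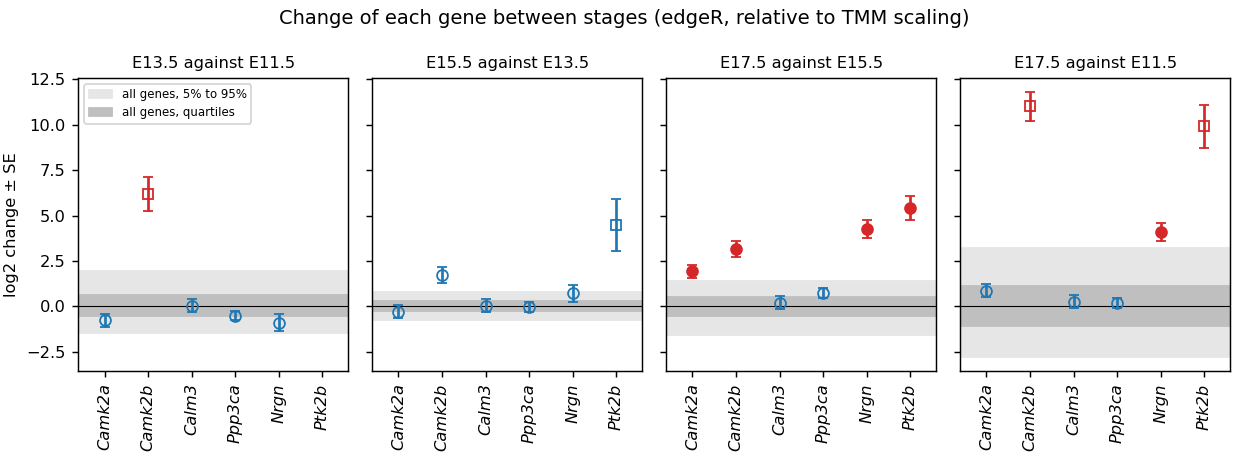
Log2 change ± SE of each gene in 4 stage comparisons, red where the adjusted p is under 0.05 and blue where it is not. Squares mark fitted values against a stage with 0 or 1 counts, which depend on the prior count, and grey bands give the quartiles and the 5% to 95% range of all genes. Ptk2b at E13.5 against E11.5 has 0 counts in both stages and no symbol. At E17.5 against E15.5, 4 of the 6 genes lie above the 95% line of 1.39. Among them is Ptk2b, which entered the test only through its E17.5 libraries.

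Markers of several cell types moved with these stages. The 5 measured of 8 neuron markers summed to 176 to 242, 698 to 763, 1074 to 1215 and 2872 to 3275 CPM per library over the 4 stages in order of age. The 5 measured of 8 progenitor markers summed to 570 to 935, 287 to 379, 148 to 364 and 63.3 to 107 CPM likewise. The 4 measured of 8 interneuron markers summed to 133 to 169, 45.5 to 49.1, 104 to 130 and 349 to 380 CPM in the same order. The 2 measured of 7 markers of astrocytes and oligodendrocyte precursors summed to 4.78 to 9.10, 21.1 to 33.2, 13.4 to 24.8 and 32.4 to 52.9 CPM. The 6 meningeal markers summed to 233 to 276, 295 to 319, 31.0 to 39.2 and 2.69 to 3.64 CPM over the 4 stages in order of age. Microglia markers (2 of 4) summed to 5.02 to 8.72, 8.87 to 13.8, 7.54 to 11.6 and 5.69 to 10.7 CPM by stage. Of 6 blood and vessel markers 1 was measured, with 8.49 to 16.3 CPM at E11.5 and 0 to 0.165 CPM at E17.5. All 7 cortex markers were present at every stage, with sums of 1545 to 2771 CPM. The part of these cell types in the changes above was not tested, and in bulk cortex more cells of a type and more RNA per cell cannot be told apart. Composition differed too, with stage means of 25.9% to 32.4% of gene counts in intron peaks at the later stages and 61.0% ± 4.17 (SD, n = 3) at E11.5. Gene counts totalled 4688215 to 6374892 per library.

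The wider calcium and calmodulin pathway was followed with 111 other genes in 6 role groups, of which 65 were measured. For E17.5 against E15.5, 19 of these rose and 3 fell (33.8% called, 20.4% over all genes), with a median log2 change of 0.36. Set against E11.5, 35 rose and 12 fell (72.3% called, 57.8% over all genes), with a median of 1.12. Scaling by the total over all peaks gave 12 higher and 9 lower at E17.5 against E15.5, and scaling by the gene total gave 6 lower at E17.5 against E11.5.

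In the CaM kinase group, of 12 measured genes 9 rose and 0 fell at E17.5 against E15.5 (75% called, 20.4% over all genes). At E17.5 against E11.5, 10 rose and 1, Camk1d, fell (91.7% called, 57.8% over all genes). With scaling by the total over all peaks 5 rose at E17.5 against E15.5, and with scaling by the gene total 0 fell at E17.5 against E11.5. Camkv, a kinase-like protein without activity that binds calmodulin, averaged 203 ± 37.9 CPM at E17.5 and 26.7 ± 2.31 at E15.5 (SD, n = 3 each), and rose by 2.92 ± 0.27. Pnck, a CaMKI kinase, averaged 84.6 ± 16.03 CPM at E17.5 and 21.6 ± 1.45 at E15.5 and rose by 1.97 ± 0.34. Camk1 averaged 69.6 ± 25.7 CPM at E17.5 and 22.1 ± 2.35 at E15.5 and rose by 1.66 ± 0.32. The CaMKII inhibitors Camk2n1 (1.25 ± 0.38) and Camk2n2 (1.70 ± 0.36), the upstream kinase Camkk2 (1.04 ± 0.27) and Camk2g (1.12 ± 0.33) rose too, while Camk2d stood at 0.36 ± 0.46 and was not called. The Camk2g call was lost with either total scaling and without E15.5 replicate 1, E15.5 replicate 2, E17.5 replicate 1 or E17.5 replicate 3 (adjusted p of up to 0.101 without 1 library).

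Calcineurin genes were mixed. Of 13 measured, 3 rose and 1, Ppp3cb, fell at E17.5 against E15.5 (30.8% called, 20.4% over all genes). At E17.5 against E11.5, 5 rose and 4 fell (69.2% called, 57.8% over all genes), or 9 and 2 with scaling by the gene total. Just 1 rose at E17.5 against E15.5 with scaling by the total over all peaks, where 3 fell. Without E15.5 replicate 2 or without E15.5 replicate 3, 1 rose in that comparison. Cabin1, an inhibitor of calcineurin, rose by 1.37 ± 0.32 at E17.5 against E15.5 and by 2.70 ± 0.36 against E11.5. Crtc1, a transcriptional coactivator that calcineurin dephosphorylates, rose by 1.14 ± 0.39 and 3.19 ± 0.46 in the same comparisons, but the call against E15.5 (adjusted p = 0.0475) was lost in 9 of 12 fits without 1 library (log2 changes of 0.68 to 1.46, adjusted p of up to 0.249). The highest p was without E17.5 replicate 2, and 3 fits, without E13.5 replicate 1, E13.5 replicate 3 or E17.5 replicate 3, still passed. The testis-enriched catalytic subunit Ppp3cc rose by 1.29 ± 0.34 at E17.5 against E15.5. Nfatc3, a transcription factor that calcineurin activates, fell by 3.47 ± 0.50 at E17.5 against E11.5.

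Of 17 other calmodulin-binding and IQ-motif genes, 2 rose and 1 fell at E17.5 against E15.5 (17.6% called, 20.4% over all genes), and 8 rose and 3 fell at E17.5 against E11.5 (64.7% called, 57.8% over all genes). At the second comparison 5 fell with DESeq2, with the replicate block or without E11.5 replicate 2, and at the first 3 fell with scaling by the total over all peaks. Sptan1, the alpha spectrin of the neuronal membrane skeleton, averaged 537 ± 106 CPM at E17.5 and 141 ± 28.6 at E15.5 and rose by 1.93 ± 0.27. Add2, which caps actin at that skeleton, rose by 1.75 ± 0.30. Aspm, a spindle protein of dividing progenitors, averaged 5.34 ± 0.542 CPM at E17.5 and 18.5 ± 3.15 at E15.5 and fell by 1.79 ± 0.29. Aspm is also among the progenitor markers above.

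Of the 9 measured sensors and buffers 3 rose and 1 fell at E17.5 against E15.5 (44.4% called, 20.4% over all genes), and 6 rose and 1 fell at E17.5 against E11.5 (77.8% called, 57.8% over all genes), or 0 fell with either total scaling. Vsnl1, a neuronal calcium sensor, averaged 74.5 ± 27.0 CPM at E17.5 and 5.54 ± 2.10 at E15.5 and rose by 3.75 ± 0.43. Hpca, another sensor of this family, averaged 144 ± 45.8 CPM at E17.5 and 54.1 ± 14.3 at E15.5 and rose by 1.41 ± 0.34. Cabp1, a calmodulin-like sensor, averaged 1.01 ± 1.75, 41.5 ± 9.41, 44.8 ± 18.5 and 46.1 ± 14.3 CPM over the 4 stages in order of age and changed at the first step (adjusted p = 6.22e-05). All 8 Cabp1 counts at E11.5 came from replicate 2, and the fitted log2 change at E17.5 against E11.5, 5.57 ± 0.70, was 11.20 without that library. The endoplasmic reticulum calcium buffer Calr fell by 1.88 ± 0.35 at E17.5 against E15.5.

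Of 20 listed genes for calcium stores, pumps and entry, 5 were measured. Ryr3, a calcium release channel, was at 0 in the E11.5 libraries, averaged 29.5 ± 5.59 CPM at E17.5 and 5.21 ± 1.05 at E15.5, and rose by 2.50 ± 0.34. Stim2, the sensor of store calcium, averaged 12.3 ± 1.49 CPM at E17.5 and 20.5 ± 3.65 at E15.5 with a change of -0.74 ± 0.27 that was not called (adjusted p = 0.0681). Of 9 measured calcium-dependent kinases and partners, 1 rose and 0 fell at E17.5 against E15.5 (11.1% called, 20.4% over all genes), and 0 rose without E15.5 replicate 1, E15.5 replicate 3, E17.5 replicate 1 or E17.5 replicate 2. At E17.5 against E11.5, 5 rose and 2 fell (77.8% called, 57.8% over all genes). In that comparison Rasgrp1, a calcium-responsive Ras activator, fell by 3.85 ± 0.70 and Plcb4, a phospholipase that releases store calcium, fell by 2.39 ± 0.41.

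**Figure D5:**
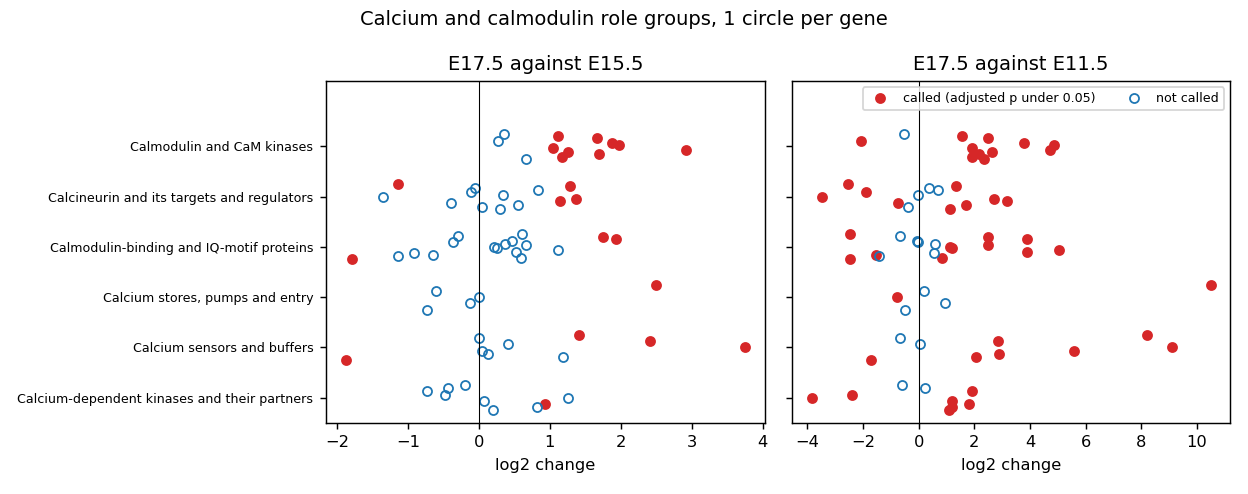
Log2 change of the 65 measured pathway genes by role group, 1 circle per gene, at E17.5 against E15.5 (left) and E17.5 against E11.5 (right), filled red where the adjusted p is under 0.05 and open blue where it is not. The CaM kinase circles lie to the right of 0 at E17.5 against E15.5, and values above 8 on the right are fitted against E11.5 stages with few or no counts.

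Other RNAs known from dendrites differed from one another. Of 20 listed, 9 were measured, of which 3 rose and 0 fell at E17.5 against E15.5 (33.3% called, 20.4% over all genes) and 6 rose and 0 fell at E17.5 against E11.5 (66.7% called, 57.8% over all genes). Grin1, an NMDA receptor subunit, rose by 2.56 ± 0.39 at the later step, Psd, a postsynaptic exchange factor, by 2.47 ± 0.31 and Shank1, a postsynaptic scaffold, by 1.83 ± 0.26. Map2, the dendritic microtubule protein, had a change of -0.42 ± 0.29 and Dlg4, the scaffold PSD-95, of -0.01 ± 0.21, and neither was called.

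The genes whose profile over the 12 libraries was most like each member were ranked by the root mean square difference of log2 CPM after centring, among 6308 genes. Nearest to Camk2a was Septin6, a cytoskeletal GTPase (0.28), and nearest to Ppp3ca was Ubqln2, a ubiquilin (0.14), followed by Dusp3 (0.19) and Hnrnpl (0.22). Nearest to Calm3 were Platr25 (0.23), Tomm70a (0.23) and Camta1 (0.25), and for so flat a profile a small distance describes little. The steep profiles had no close neighbour. Nearest to Camk2b were Npy (0.73), the neuropeptide of a class of interneurons, Rph3a (0.85) and Arpp21 (1.04). Nearest to Nrgn were Dnm1, the dynamin of synaptic vesicles (0.85), Tafa2 (0.86) and Pou2f2 (0.87). Nearest to Ptk2b were Kcnip2, a calcium-binding potassium channel partner (0.88), Tafa2 (0.89) and Camkv (0.92). Pdxk (0.33) and Fam174b (0.35) came after Septin6 for Camk2a.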

How the data were processed

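The authors deposited whole-number counts per merged peak and strand for 12 libraries, with a peak score, and these were used as deposited. Per the submitters' processing notes, HOMER 4.10 and the builds mm10 and GRCm38 were used. Aligner, counting tool, peak settings and any scaling: not given in the sources used here. Ribosomal RNA was removed with Ribo-Zero before strand-marking ScriptSeq libraries were built, per the labels' protocols. The peak score the authors deposited served only to select peaks above its median as an alternative.

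The table has 18975 rows over 13879 merged peaks. The 4513 Intergenic rows were left out, since all their values are even and 605 of them are exactly double the gene row at the same place. Another 165 rows without a gene were left out. These hold 62.0% to 72.3% of the deposited values of a library, with the Intergenic values not halved. With those values halved and the repeated rows dropped, the share is lower. Counts were summed per gene and fitted with edgeR 4.0.16 in R 4.3.3 (TMM, filterByExpr, quasi-likelihood F test, 1 fit of 4 stages, Benjamini-Hochberg over all features at 0.05). The filter kept 7876 genes, all 6 members among them, and 14106 peaks. Ptk2b passed it only through its E17.5 libraries. The biological coefficient of variation was 0.305 for genes. Peaks of a gene were compared with diffSpliceDGE. Ratios of 5 measured of 8 listed related pairs were tested with two-sided exact permutation of libraries over stages, and the other 3 pairs were not analysed here. Windows of 200 bases were folded with ViennaRNA 2.7.2 for 9 of the 10 peaks. Alternatives were DESeq2 1.42.0, other scalings, no filter, a replicate block, higher-scored peaks, 3′ UTR peaks and each library left out. The procedures were tested on simulated data. The genes and lists were chosen with earlier results of these data known. Named genes are the members, pair partners, the 3 genes of each role group with the smallest 4-stage p past the threshold and the 3 genes most like each member in profile with a mean of at least 5 CPM. Others were named after their values were seen.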

Additional observations from a re-analysis of the deposited data

Results flagged for a closer look

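At the peaks of Calm3 and Nrgn the table also holds a row on the strand opposite the gene, recorded as intergenic and used in no comparison of stages. Halved as the other such rows require, the summed count over the 3 E17.5 libraries was 927 at Calm3, against 17009 on the gene strand, and 523 at Nrgn, against 3548 on the gene strand. Both exceed the 3 counts that a count of 0 allows. Summed by stage, in order of age, they were 13, 20, 45 and 523 for Nrgn and 409, 1079, 929 and 927 for Calm3. The source of these counts was not tested.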

How the results depend on the processing

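Each of the main counts of calls was recomputed under the alternatives that apply to it, with neither DESeq2 nor other scalings for pairs and for peaks moving apart, and 224 of 241 such values stayed within 1.5 times. The exceptions came mostly from scaling by total counts, which shifts the median gene by 1.22 at E13.5 against E11.5, 1.23 at E17.5 against E11.5 and -0.16 from E15.5 to E17.5 with the total of the gene peaks, and by 1.27, 1.01 and -0.40 with the total over all peaks. With the gene total and with the total over all peaks, 3 and 3 of the 6 genes were called at E13.5 against E11.5, 1 and 1 at E15.5 against E13.5, and 6 and 6 at E17.5 against E11.5. By peak they gave 10 and 8 of 10 over the 4 stages, 3 and 4 at E13.5 against E11.5, and 10 and 10 at E17.5 against E11.5. The shares of all genes and peaks called under these scalings are not given here. These counts therefore cannot be set against all features and are not a result about the members. At E15.5 against E13.5, DESeq2 and the fit without E15.5 replicate 3 each called 1 gene and 1 peak, Camk2b. Leaving out 1 library gave 0 to 1 genes and 0 to 1 peaks at that step, 4 to 5 genes over the 4 stages, 3 to 4 for E17.5 against E11.5 and 4 to 5 for E17.5 against E15.5. Pairs measured in 3′ UTR peaks alone were 2, of which 1 was called. The calls of Camk2a, Camk2b, Nrgn and Ptk2b at E17.5 against E15.5 passed in all 21 alternatives each, with log2 changes of 1.54 to 2.18, 2.66 to 3.47, 3.89 to 4.78 and 4.97 to 6.54.

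Same-numbered libraries did not deviate together in every pair (correlations of -0.18 to 0.12 for number 1, 0.18 to 0.56 for number 2 and -0.12 to 0.20 for number 3), so the numbers were not taken to pair the libraries, though those of number 2 deviated together in all 6 pairs. With the replicate block, 4 of 6 genes were called over the 4 stages (Ppp3ca at adjusted p = 0.0630) and 4 at E17.5 against E11.5 (Camk2a at 0.0368), and 4 related pairs were called, as without it.

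Directions turned in these cases. At E13.5 against E11.5, Calm3 was at -0.0051 with DESeq2 size factors, -0.0041 with DESeq2, -0.022 with the replicate block, -0.087 with only replicates 1 and 3, and -0.23 to 0.28 without 1 library. With the gene total and the total over all peaks, Camk2a was at 0.41 and 0.46, Ppp3ca at 0.67 and 0.72 (both called, adjusted p = 0.0449 and 0.0389) and Nrgn at 0.30 and 0.35. At E15.5 against E13.5, Calm3 was at -0.20 with only replicates 1 and 3 and -0.46 to 0.29 without 1 library, and Ppp3ca at 0.17 and 0.13 with the 2 totals, 0.22 with only replicates 1 and 3 and -0.16 to 0.13 without 1 library. At E17.5 against E15.5, Calm3 was at -0.18 with the total over all peaks and -0.038 to 0.69 without 1 library, and the Ppp3ca peaks at 136797819 and 136903151 were at -0.0012 and -0.013. At E17.5 against E11.5, with the 2 totals Ptk2 was at 0.59 and 0.37, Stim2 at 0.72 (called, adjusted p = 0.0435) and 0.49 and Camk2d at 0.66 and 0.44, and Septin6, called at 0.57 (adjusted p = 0.0495), was at -1.04 with higher-scored peaks (adjusted p = 0.00923). Without 1 library Tomm70a was at -0.15 to 0.10, Ubqln2 at -0.12 to 0.17 and the Ppp3ca peak at 136797819 at -0.17 to 0.34. The causes were not tested. Depth limits Camk2b at E11.5 and Ptk2b before E17.5.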
